A study of Homo sapiens with 4 samples.

Results

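The acceptor stem and 3' end of tRNA were taken as every nucleotide with a canonical number from 1 to 7 or from 66 to 76 in each of 48 nuclear-encoded tRNA references. The rule used positions only and no measured value. It gave 864 nucleotides of 3621 numbered ones: 336 on the 5' strand of the stem (positions 1 to 7), 336 on its 3' strand (66 to 72) and 192 at the single-stranded end (73 to 76). The groups were TRMT1L KO cells, with 2 libraries, and WT cells, with 2 libraries. Both are HCT116, an established line of human colorectal carcinoma, grown in the same medium with no further treatment. The labels name neither the clone nor the edited allele of the KO cells. Nothing in them shows that replicate libraries are separate cultures, so the p-values cover the spread of these 4 libraries, and part or all of it may be technical.

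Purified tRNA was deacylated, joined to splint adaptors and read as native RNA in a nanopore (Nano-tRNAseq). At each nucleotide the sheets give the rates of mismatch, deletion and insertion in the base calls. Their sum, the summed error, is used below in percent of reads, and differences are in percentage points, KO minus WT. A modified base can raise it, and so can the sequence around a base, and an error rate alone does not tell these apart. The sheets state no read depth, so no counting interval can be given.

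In the folded tRNA, positions 1 to 7 pair with 72 to 66 to form the acceptor stem. Position 73, the discriminator base, is unpaired and helps aminoacyl-tRNA synthetases to recognise their tRNA. It is followed by C74, C75 and A76, which the enzyme TRNT1 adds after transcription, and the amino acid is attached to A76. Few modified nucleotides are known here in human nuclear-encoded tRNA: N2-methylguanosine at positions 6 and 7, made by THUMPD3 with TRMT112, a 2'-O-methyl group at position 4 made by TRMT13, 5-methylcytidine at position 72 of some threonine and cysteine tRNAs made by NSUN6, and a guanosine that THG1L adds before position 1 of histidine tRNA. TRMT1L acts elsewhere, on a guanosine of the anticodon stem of tyrosine tRNA, as the study's title states.

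The adaptors are shown because they border the members at both ends and set what is read next to position 76. In the 5' adaptor the capitals mark the overhang that pairs with the end of the tRNA (N pairs with position 73, UGG with CCA). Its other 20 bases are complementary to the start of the 3' adaptor.
5' splint adaptor: ccuaagagcaagaagaagccUGGN
3' splint adaptor: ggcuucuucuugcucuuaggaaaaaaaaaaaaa
The 3' adaptor follows A76 directly in the ligated strand.

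At position 27 of Tyr-GTA-2-1, the site that the title assigns to TRMT1L, the summed error was 31.7% and 38.4% in KO libraries, against 54.8% and 54.5% in WT libraries. The genotypes did not overlap there. Mismatch at this nucleotide went the other way, with 27.7% and 33.5% in KO, against 19.1% and 17.004% in WT. At position 27 of Tyr-ATA-1-1 the summed error was 49.7% and 46.9% in KO, against 53.4% and 51.95% in WT. Its mismatch was likewise higher in KO, at 35.9% and 32.9%, against 17.9% and 14.99% in WT. The mean summed error over the 3621 numbered positions was 31.7% and 31.8% in KO, against 30.9% in each WT library. The medians were 26.3% and 26.4% in KO, against 25.5% and 24.6% in WT. The rates thus sat slightly higher over the whole tRNA in KO libraries.

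The numbering of the members was checked against the drop in error where the tRNA meets the adaptor. The first and second adaptor nucleotides had WT medians of 1.63% and 2.03%, and the third rose to 29.3%. For 46 of 48 references the profile across this border followed the median profile best with no shift (Pearson r 0.879 to 0.998). Asn-GTT-2-1 followed it best when moved by 1 nucleotide (r = 0.99, against 0.85 unmoved). Asp-GTC-2-6 followed it best when moved by 1 nucleotide the other way (r = 0.99, against 0.71 unmoved). The lengths differ in the same sense: 41 of 48 references are 3 nucleotides longer than their RefSeq gene, as CCA addition gives, while Asn-GTT-2-1 is 2 and Asp-GTC-2-6 is 4 longer. The remaining 5 were Arg-TCT-1-1, Ile-TAT-3-1, Leu-CAA-4-1, Tyr-ATA-1-1 and Tyr-GTA-2-1, which are shorter than the gene. The gene span of these can hold an intron. Values of Asn-GTT-2-1 and Asp-GTC-2-6 are therefore given under the deposited numbers. At the 3' end these are 1 nucleotide out of step with those of the other references. Where in the reference the step arises was not traced. Their numbers on both strands, as at positions 3 and 6 of Asp-GTC-2-6, may thus also be out of step. The His-GTG-1-5 reference is 3 longer than its gene, so it has no column for the guanosine added before position 1.

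**Figure D1:**
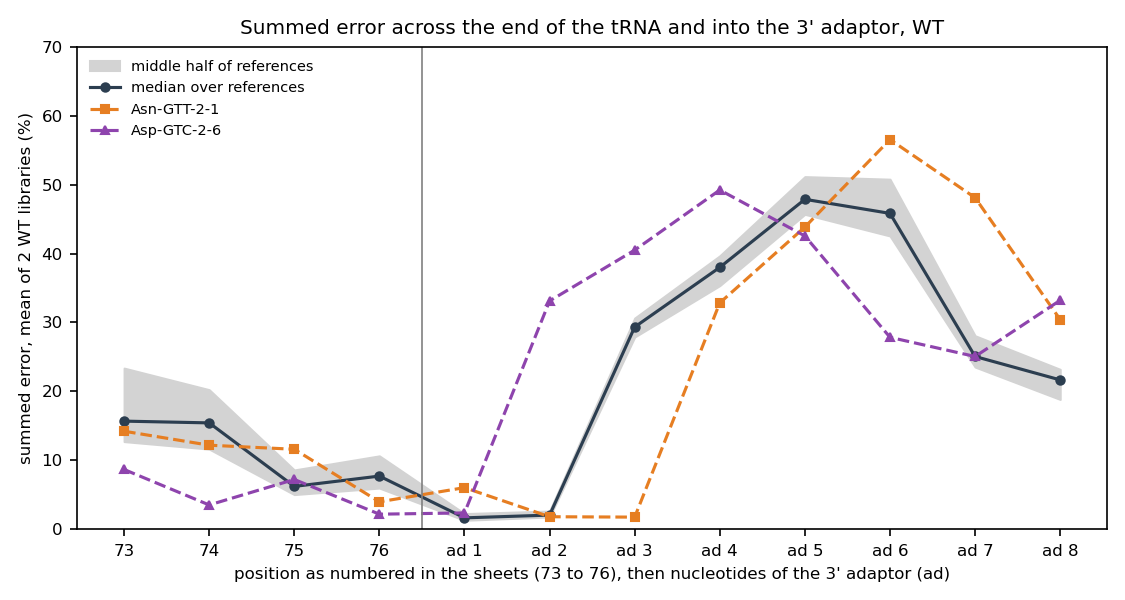
Summed error (%) in the mean of 2 WT libraries, across positions 73 to 76 and the first 8 nucleotides of the 3' adaptor (ad 1 to ad 8). The dark line is the median over references, the grey band spans their lower to upper quartile, and the dashed lines of Asn-GTT-2-1 and Asp-GTC-2-6 run 1 nucleotide late and 1 nucleotide early.

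The acceptor stem and end had lower error than the rest of the tRNA. The mean summed error was 20.6% ± 0.228 in KO and 19.5% ± 0.678 in WT over the members (SD between libraries, n = 2 each). It was 35.3% ± 0.0511 in KO and 34.5% ± 0.217 in WT over the other 2757 numbered positions. Within each library the members lay below the others, by 14.8 and 14.6 points in KO and 14.4 and 15.6 points in WT. An exact two-sided sign-flip test over the 4 libraries gave p = 0.125, the smallest that 4 libraries allow. Only 39 of 864 members (4.51%) reached 50% in WT, compared with 704 of the other 2757 positions (25.5%).

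Within the stem, the 5' strand was read with somewhat more error than the 3' strand. The 5' strand averaged 23.8% and 23.7% in KO libraries, against 22.97% and 21.8% in WT libraries. The 3' strand averaged 21.1% and 21.6% in KO, against 20.4% and 20.1% in WT. The 5' strand was the higher in all 4 libraries, by a mean of 2.26 ± 0.458 points (exact sign-flip p = 0.125). Without positions 6 and 7 it was the lower in all 4. Its positions 1 to 5 averaged 20.0% and 20.1% in KO, against 19.4% and 18.2% in WT. The 3' strand includes the out-of-step references: without Asn-GTT-2-1 and Asp-GTC-2-6 its WT mean was 20.6%. The end was lower than either strand, with 13.3% and 14.01% in KO, against 14.1% and 12.3% in WT. The 3' strand exceeded it in all 4 libraries, by a mean of 7.36 ± 0.775 points (exact sign-flip p = 0.125).

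Mismatch was the leading kind of error on every segment. On the 5' strand in WT it averaged 11.99% ± 0.404, with deletion at 7.82% ± 0.378 and insertion at 2.56% ± 0.0632 (SD, n = 2). On the 3' strand the WT rates were 10.1% ± 0.108 for mismatch, 8.39% ± 0.0419 for deletion and 1.74% ± 0.1001 for insertion. Deletion therefore held a greater share of the summed error on the 3' strand (41.5%) than on the 5' strand (34.9%), and insertion a smaller one (8.60% and 11.5%). At the end the WT rates were 7.85% ± 1.14 for mismatch, 4.43% ± 0.0269 for deletion and 0.962% ± 0.108 for insertion. The spread of the end between WT libraries thus lay almost wholly in mismatch.

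Along the 5' strand the error increased with distance from the end of the molecule. The WT mean over 48 references was 8.80% at position 1, 15.5% at position 2, 19.7% at position 3, 24.1% at position 4 and 25.9% at position 5. It was 31.3% at each of positions 6 and 7, the highest along the stem. The 3' strand had no such gradient: 17.5% at 66, 23.99% at 67, 24.1% at 68, 19.3% at 69, 14.5% at 70, 21.4% at 71 and 20.9% at 72. At the end it was 20.8% at 73 and 16.7% at 74, then only 7.13% at 75 and 8.42% at 76. The means of positions 6 and 7, of 67 and 68, and of 71 to 73 lay within 1 point of each other, near the SD between WT libraries (0.496 points at position 6 and 0.963 points at position 7). Positions 71 to 73 had the most deletion of the 3' side: 12.5% at 71 and 10.7% at 72 in WT, each above mismatch there (6.69% and 9.00%). At 75 and 76 deletion almost vanished (1.17% and 0.851% in WT), and mismatch made up most of what remained (5.60% and 6.60%).

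**Figure D2:**
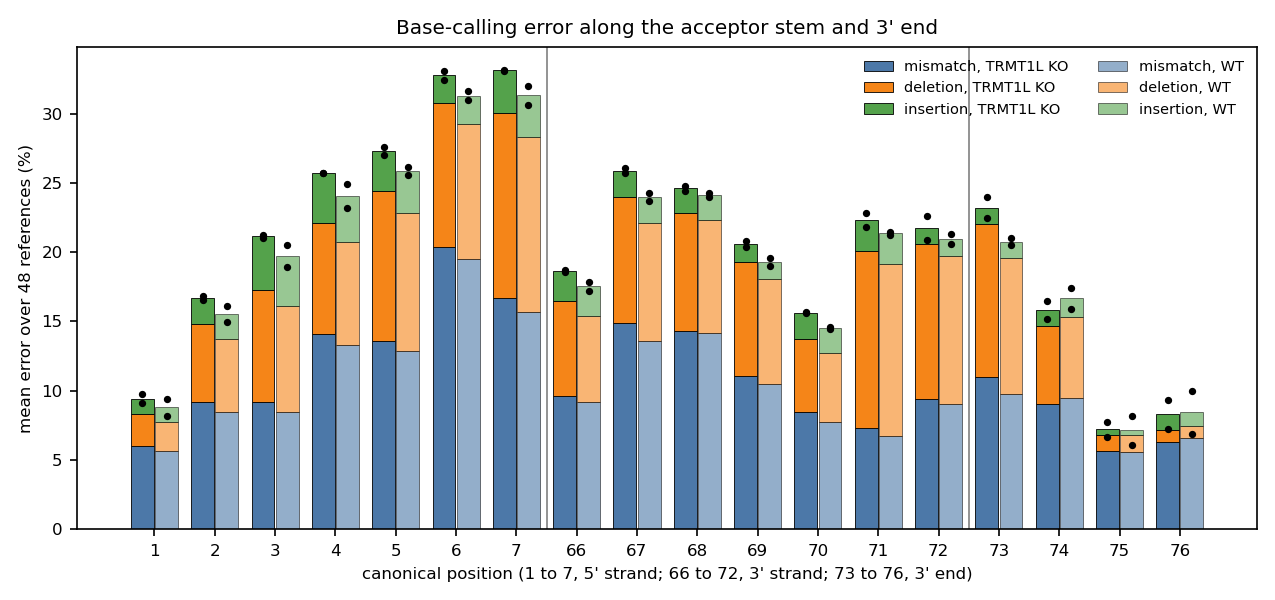
Mean error (%) over 48 references at each canonical position, stacked by mismatch, deletion and insertion, with KO bars (dark) left of WT bars (pale) and points for the summed error of each library. The sum climbs from position 1 to positions 6 and 7, varies without a gradient over 66 to 73, and is lowest at 75, 76 and 1.

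The averages hide a wide spread between tRNAs, which was greatest at position 6 (SD over references 19.7 points in WT), position 68 (18.01) and position 71 (17.6). It was narrowest at positions 75 and 76 (3.31 and 3.43 points). The 39 members at 50% or more in WT lay in 24 references, with 9 at position 7, 7 at position 68 and 5 at position 6. Mismatch led in 22 of them, deletion in 16 and insertion in 1. Over these 39, KO minus WT had a median of 0.932 points, beside 0.818 points over all 3621 positions. It was largest in size at position 73 of Thr-TGT-1-1 (9.04 points) and position 6 of Tyr-GTA-2-1 (8.90 points).

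The highest member was position 4 of Gly-GCC-2-1, with 88.04% and 88.4% in KO libraries, against 86.3% and 87% in WT libraries. Mismatch (43.3% in WT) and deletion (35.1%) both contributed. Position 5 of the same tRNA had 73.2% and position 68, the partner of position 5 in the stem, had 67.9% in WT, both led by mismatch. Position 4 was also high in Gly-TCC-2-5 (65.9% in WT) but not in Gly-CCC-2-1 (18.8%). The glycine tRNAs thus differed by 67.9 points at that position, the widest gap within any amino acid on the stem or end. Position 4 is the site of TRMT13 in the tRNAs that it modifies, which were not identified here. Among all 48 references the WT level at position 4 ran from 4.21% (Ser-AGA-2-5) to 86.7% with a median of 18.5%. Proline tRNAs had 47.02% to 49.7% there, threonine tRNAs 33.3% to 49.2% and valine tRNAs 21.4% to 28.2%. The 36 references outside glycine, proline, threonine and valine had a median of 15.3%. Their maximum was 43.2%, within the range of the threonine tRNAs.

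Proline tRNAs carried the largest group of high members, 9 of the 39. At position 6 the WT means were 82.96% in Pro-TGG-3-3, 80.5% in Pro-CGG-2-1 and 78.6% in Pro-AGG-1-1. Mismatch made up 49.3% to 53.6% and deletion 26.9% to 30.2%. At position 71 the error was nearly all deletion: 68.8% to 73.5%, with mismatch at 4.52% to 5.88%. Pro-TGG-3-3 position 71 had 76.7% and 80.1% in KO libraries, against 78.9% and 78.4% in WT libraries, so the genotypes overlapped. The other 45 references had a WT median of 15.6% at position 71 and a maximum of 44.3%. Pro-TGG-3-3 also had the lowest error of all references at position 66 (2.54%) and at position 73 (5.48%). It thus held extremes of both kinds.

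Threonine and cysteine tRNAs stood out next to the CCA end. At position 73 Thr-AGT-3-1 had 70.1% and 73.9% in KO libraries, against 73.2% and 70.2% in WT libraries. Cys-GCA-3-1 had 64.8% and 63.6% in KO, against 60.4% and 63.2% in WT. The WT means of Thr-CGT-1-1 and Thr-TGT-1-1 were 57.1% and 52.4%. Deletion led in all 4 (32.4% to 53.5%). Glutamine tRNAs followed with 41.6% and 48.8%. The other 42 references had a median of 15.2% and a maximum of 33.8%. Next upstream is position 72, where NSUN6 methylates a cytidine in some threonine and cysteine tRNAs. The same 4 references had 26.2% to 42.9% there in WT. There too deletion made up most of the error (22.003% to 39.99%), with mismatch at 1.74% to 4.10%. The other 44 references had a median of 18.03% at position 72. They also held its highest value, 78.1% in Arg-CCT-1-1, which was led by mismatch (57.6%).

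Other high members were scattered. Position 68 reached 71.8% in Arg-TCG-1-1 (mismatch 64.7%), 64.4% in Ala-AGC-8-2 (deletion 48.3%) and 57.2% in Ile-GAT-1-1 (mismatch 50.8%). Position 67 reached 66.1% in Ser-CGA-2-1, and position 69 reached 55.3% in Ala-AGC-8-2. Position 3 was high in both tyrosine tRNAs (deletion of 37.1% in WT for Tyr-ATA-1-1 and 39.4% for Tyr-GTA-2-1) and in Asp-GTC-2-6. The last, with 67.5% and 65.6% in KO libraries and 64.6% and 66.8% in WT libraries, was the sole high member led by insertion (34.98% in WT). The next highest insertion rate on the stem or end was 13.9%, at position 2 of Gly-GCC-2-1.

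The remaining positions had these extremes in WT. Position 1 ran from 2.51% (Thr-AGT-3-1) to 31.8% (Ala-AGC-8-2), and position 2 from 1.73% (Thr-AGT-3-1) to 46.4% (Arg-CCT-1-1). Position 3 was lowest in Glu-CTC-1-1 (4.39%) and position 5 in Arg-ACG-1-2 (4.71%). On the 3' strand position 66 was highest in Ser-GCT-5-1 (38.7%) and position 70 in Phe-GAA-2-1 (39.8%). The lowest values were 2.52% at position 68 of Gln-CTG-1-1, 2.21% at position 70 of Val-CAC-1-1 and 4.78% at position 71 of Tyr-GTA-2-1. The lowest at 67 (Asn-GTT-2-1, 4.48%) and at 69, 72, 74 and 76 (Asp-GTC-2-6, 4.64%, 4.71%, 3.502% and 2.17%) fell on the out-of-step references. At the end, position 75 was lowest in Lys-CTT-3-1 (1.74%) and highest in Thr-TGT-1-1 (17.6%). His-GTG-1-5 was highest at positions 74 (32.5%) and 76 (17.5%).

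**Figure D3:**
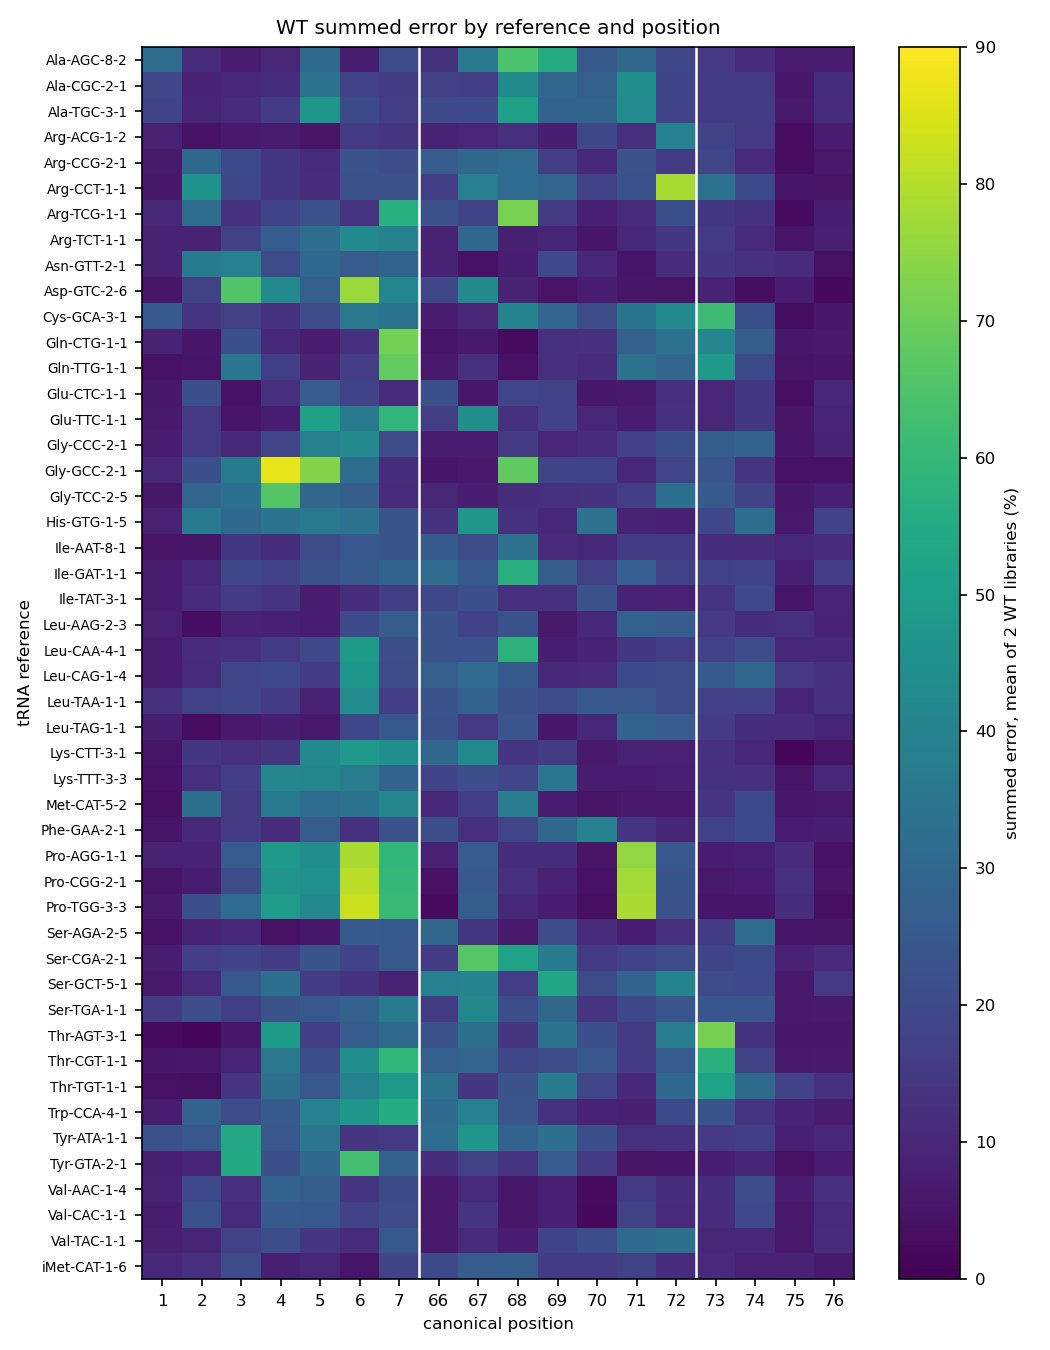
Summed error (%, colour) in the mean of 2 WT libraries for each of 48 references (rows) at each canonical position (columns), with white lines between the 5' strand, the 3' strand and the 3' end. Bright cells recur within an amino acid at positions 6, 7 and 71 of proline, 7 of glutamine, 73 of threonine and 3 of tyrosine, and some lie next to each other, as at 4 and 5 of Gly-GCC-2-1.

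Positions 6 and 7, where N2-methylguanosine is known in human tRNA, had more error than the other positions of the 5' strand in every library. Their mean summed error was 33.1% and 32.8% in KO libraries, against 31.8% and 30.8% in WT libraries. Positions 1 to 5 averaged 20.0% and 20.1% in KO, against 19.4% and 18.2% in WT. The difference between both sets of positions was 12.7 ± 0.287 points over the 4 libraries (exact sign-flip p = 0.125, the smallest possible). The error climbed along the strand, however. Position 5, the nearest, had 25.9% in WT, against 31.3% at each of positions 6 and 7. The part of the modification in these levels was not tested. Of the WT error at 6 and 7, mismatch made up 56.1%, deletion 35.7% and insertion 8.12%. Of the 96 nucleotides, 14 reached 50% in WT, compared with 7 of 240 at positions 1 to 5.

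The 3 proline tRNAs were high at both positions, and the other references at the top of each differed. At position 6 the 5 highest in WT were the 3 proline tRNAs, Asp-GTC-2-6 (76.5%) and Tyr-GTA-2-1 (63.3%). The next was Leu-CAA-4-1 at 48.9%. The lowest were iMet-CAT-1-6, the initiator tRNA (4.99%), Ala-AGC-8-2 (7.66%), Val-TAC-1-1 (10.99%), Ile-TAT-3-1 (11.4%) and Gln-CTG-1-1 (12.7%). At position 7 the highest were Gln-CTG-1-1 (71.4%), Gln-TTG-1-1 (68.3%) and the 3 proline tRNAs (59.5% to 60.9%), followed closely by Thr-CGT-1-1 (59.5%) and Glu-TTC-1-1 (59.3%). The lowest were Ser-GCT-5-1 (8.63%), Gly-TCC-2-5 (10.8%), Glu-CTC-1-1 (11.1%), Gly-GCC-2-1 (11.7%) and Arg-ACG-1-2 (13.6%). Gln-CTG-1-1 was thus among the 5 lowest at position 6 and the highest at position 7.

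References that decode the same amino acid often differed at these positions. At position 6 Tyr-GTA-2-1 had 71.6% and 72.8% in KO libraries, against 60.7% and 65.9% in WT libraries, whereas for Tyr-ATA-1-1 it was 13.46% and 11.6% in KO, against 14.3% and 13.7% in WT. The first was higher in KO by 8.90 points and did not pass the test described below (limma adjusted p = 0.185). Its mismatch was 62.4% in KO and 52.3% in WT, a difference of 10.1 points, while deletion and insertion were slightly lower in KO. At position 7 Glu-TTC-1-1 and Glu-CTC-1-1 differed by 48.1 points in WT. Arg-TCG-1-1 had 57.2% at position 7, led by deletion (46.03%), but at position 6 it had 17.7% and 14.2% in KO libraries, against 13.4% in each WT library.

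**Figure D4:**
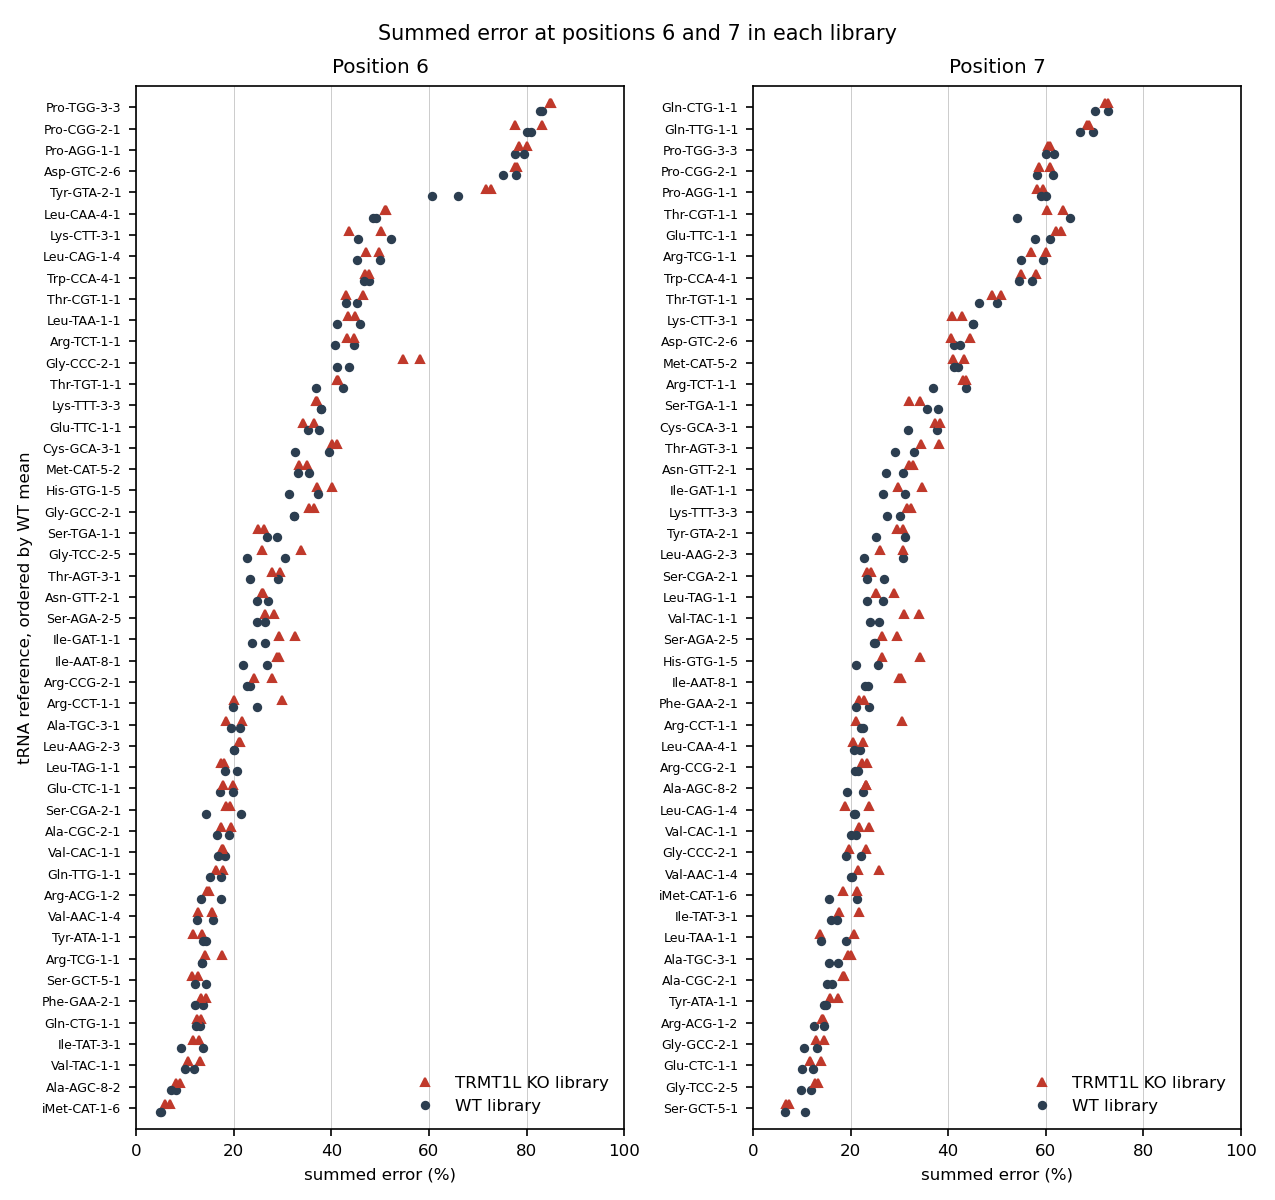
Summed error (%) at positions 6 and 7 of 48 references in each library, with TRMT1L KO as triangles above WT as circles, and references ordered by the WT mean. Most points of a row lie within a few points of each other, and Gly-CCC-2-1 at position 6 has both KO libraries (54.6% and 58.2%) well above both WT libraries (41.2% and 43.7%).

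A rule of 3 scaled median absolute deviations from the median of all references was used to find tRNAs whose whole segment stood apart in WT. No reference passed it on the 5' strand, the 3' strand or positions 6 and 7. The proline tRNAs came close at positions 6 and 7, at 2.76 to 2.95 scaled deviations. The highest on the 5' strand was Pro-TGG-3-3 with a mean of 42.2%, against a median of 20.3% over references. At the end 2 references passed, against a median of 12.1%: Thr-TGT-1-1 at 4.33 scaled deviations and Thr-AGT-3-1 at 3.16. Cys-GCA-3-1 narrowly missed the limit, at 2.92. Thr-TGT-1-1 averaged 24.9% and 27.3% in KO libraries and 30.5% and 26.5% in WT libraries. Thr-AGT-3-1 averaged 22.3% and 24.8% in KO and 25.4% and 22.8% in WT. They differ in make-up. Thr-AGT-3-1 was high through position 73 alone, while Thr-TGT-1-1 was also high at position 74 (31.2% in WT) and was the highest reference at 75.

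Across the 48 references the WT summed error of the bases of a pair had a Pearson r from -0.23 (2 with 71) to 0.20 (5 with 68) over the 7 pairs. Over the 11 neighbouring pairs computed, r ran from 0.04 (74 and 75) to 0.57 (4 and 5). It was 0.12 for 67 and 68 and 0.17 for 75 and 76, within the range of the base pairs, and 0.46 for 6 and 7. These values describe references read in the same libraries. The closely similar tRNAs among them, such as those of proline, are not independent points, and neighbouring bases are read in one pore signal.

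In the comparison of genotypes, every nucleotide of the 3621 was tested with limma on the arcsine square root of the rate, with Benjamini-Hochberg adjustment over all of them and a threshold of 0.05. For the summed error 22 positions passed (0.608%), of which 1 was a member. This was position 6 of Gly-CCC-2-1, with 54.6% and 58.2% in KO libraries, against 41.2% and 43.7% in WT libraries. The genotypes did not overlap, the difference was 13.98 points, and the limma adjusted p was 0.0236. With each library centred on its median the difference was 12.7 points, with an adjusted p of 0.0696. It passed with each of the 4 libraries left out in turn. Against a background of 0.221% of all positions called higher in KO, 1 of 864 members is no greater share.

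The rise at Gly-CCC-2-1 lay mostly in deletion. Of the 13.98 points at position 6, deletion made up 10.9 points, mismatch 2.82 points and insertion 0.211 points. At position 6 deletion was 35.9% and 39.2% in KO libraries, against 23.96% and 29.3% in WT libraries (limma adjusted p = 0.0121). At position 5 it was 30.6% and 35.7% in KO, against 21.6% and 25.7% in WT (adjusted p = 0.0324). Without KO replicate 2 the differences were 9.26 points at position 6 and 6.91 points at position 5 (limma adjusted p = 0.154 and 0.384). Without WT replicate 1 they were 8.30 and 7.45 points (limma adjusted p = 0.116 and 0.201). Mismatch at position 6 was 17.7% and 17.3% in KO, against 15.99% and 13.4% in WT, and did not pass (adjusted p = 0.723). At position 7 of the same tRNA the summed error was 23.1% and 19.7% in KO, against 22.1% and 18.96% in WT. The other glycine tRNAs at position 6 had no called kind of error. Gly-GCC-2-1 did not overlap, with 35.3% and 36.5% in KO, against 32.3% and 32.4% in WT (3.58 points, limma adjusted p = 0.644). Gly-TCC-2-5 overlapped between genotypes, with 33.9% and 25.8% in KO, against 22.8% and 30.4% in WT.

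Across kinds, deletion gave most of the called members. It passed at 43 of 3621 positions (1.19%). Of these 21 were higher in KO (0.58%), among them 9 members (1.04% of 864), and 22 were lower (0.608%), with no member among them. At an unadjusted p under 0.05 the deletion rate passed at 11.4% of all positions. The called members lay in 5 references, with 8 on the 5' strand, 1 on the 3' strand and 0 at the end. They include the pair in Gly-CCC-2-1 above, and members of 1 tRNA share its reads. Mismatch passed at 20 positions (0.552%) and insertion at 3 (0.0829%), with 0 members in each by limma. At an unadjusted p under 0.05, 66 members passed for mismatch and 45 for insertion, with 6.99% and 5.69% of all positions.

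Isoleucine tRNAs held 5 of the 9 called members, with WT mean deletion rates from 1.56% to 6.42%. The WT median over all 864 members was 4.68%. In Ile-AAT-8-1 deletion at position 6 was 6.26% and 5.75% in KO libraries, against 2.37% and 3.22% in WT libraries (limma adjusted p = 0.00554). At position 7 it was 10.7% and 7.41% in KO, against 3.66% and 5.47% in WT (adjusted p = 0.0328). At position 4 it was 4.50% and 4.38% in KO, against 2.04% and 2.54% in WT (adjusted p = 0.0317). In Ile-GAT-1-1 deletion at position 1 was 4.58% and 5.24% in KO, against 2.18% and 0.935% in WT (adjusted p = 0.00104). At position 5 it was 11.1% and 12% in KO, against 7.02% and 5.83% in WT (adjusted p = 0.00736). For deletion, both KO libraries lay above both WT libraries at 28.5% of the 864 members and 37.7% of the other 2757 numbered positions. None of the 5 overlapped between genotypes, but only position 1 of Ile-GAT-1-1 passed with each library left out in turn. The limma adjusted p at position 6 of Ile-AAT-8-1 was 0.0866 without WT replicate 1 (2.78 points). At its position 7 it was 0.251 without KO replicate 1 (2.85 points) and 0.274 without WT replicate 1 (3.59 points). At its position 4 it was 0.133 without KO replicate 1 (2.09 points), 0.0681 without KO replicate 2 (2.21 points) and 0.196 without WT replicate 1 (1.90 points). At position 5 of Ile-GAT-1-1 it was 0.055 without WT replicate 2 (4.53 points). The third isoleucine tRNA, Ile-TAT-3-1, had no called member. At its position 6 deletion was 4.16% and 4.40% in KO, against 3.36% and 2.17% in WT.

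The other 2 were in histidine and arginine tRNAs. Position 3 of His-GTG-1-5 had a deletion rate of 10.2% and 11.7% in KO libraries, against 5.88% and 6.45% in WT libraries (limma adjusted p = 0.0121). The difference was 4.01 points without KO replicate 2 (limma adjusted p = 0.116) and 4.47 points without WT replicate 1 (adjusted p = 0.0745). Position 71 of Arg-TCT-1-1 had 8.34% and 5.28% in KO, against 3.21% and 3.14% in WT (adjusted p = 0.0225). Without KO replicate 1 this difference was 2.10 points and the limma adjusted p was 0.328. Without WT replicate 1 or 2 it was 3.66 or 3.60 points (limma adjusted p = 0.144 or 0.0946). The same library set Arg-TCT-1-1 apart at other positions of its 3' side. The summed error at position 73 was 32.4% and 18.8% in KO, against 13.9% and 16.7% in WT, and at position 69 it was 22.9% and 12.2% in KO, against 8.46% and 10.5% in WT. The second KO library lay close above the WT libraries at both.

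The deletion calls depended on the setting. With each library centred on its median, position 5 of Gly-CCC-2-1, positions 4 and 7 of Ile-AAT-8-1 and position 71 of Arg-TCT-1-1 no longer passed (limma adjusted p = 0.0753 to 0.135). Without limma's trend and robust settings the calls were position 6 of Gly-CCC-2-1, position 3 of His-GTG-1-5 and position 5 of Ile-GAT-1-1, and the other 6 had adjusted p = 0.0511 to 0.165. On untransformed rates position 7 of Ile-AAT-8-1 (limma adjusted p = 0.0604) and position 71 of Arg-TCT-1-1 (limma adjusted p = 0.0624) did not pass. With replicates paired crosswise as a block, a pairing chosen after seeing the data, position 1 of Ile-GAT-1-1 alone of the 9 passed.

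The lists of known sites gave few calls. They hold the named positions of every reference, or of every reference of the amino acids given, with no check of the base. Some of these nucleotides may thus not be sites. At positions 6 and 7 the summed error was higher in KO at 76 of 96 nucleotides, with a median difference of 1.25 points, 1 call for the sum and 3 for deletion, the background for deletion being 0.58% of all positions higher in KO. At position 4 it was higher at 34 of 48, with a median of 1.53 points and 1 call for deletion. At position 72 the median was 0.632 points in the 4 threonine and cysteine tRNAs and 0.849 points in the other 44, with no call in either. Among those 4 the highest difference was 6.32 points, in Thr-TGT-1-1 (38.05% and 35.7% in KO, against 29.3% and 31.8% in WT). Position 1 of His-GTG-1-5 had 9.54% and 10.2% in KO, against 8.59% and 8.20% in WT, and neither it nor position 73 passed. Over all 3621 positions the median was 0.818 points, and 2536 (70.04%) were higher in KO.

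**Figure D5:**
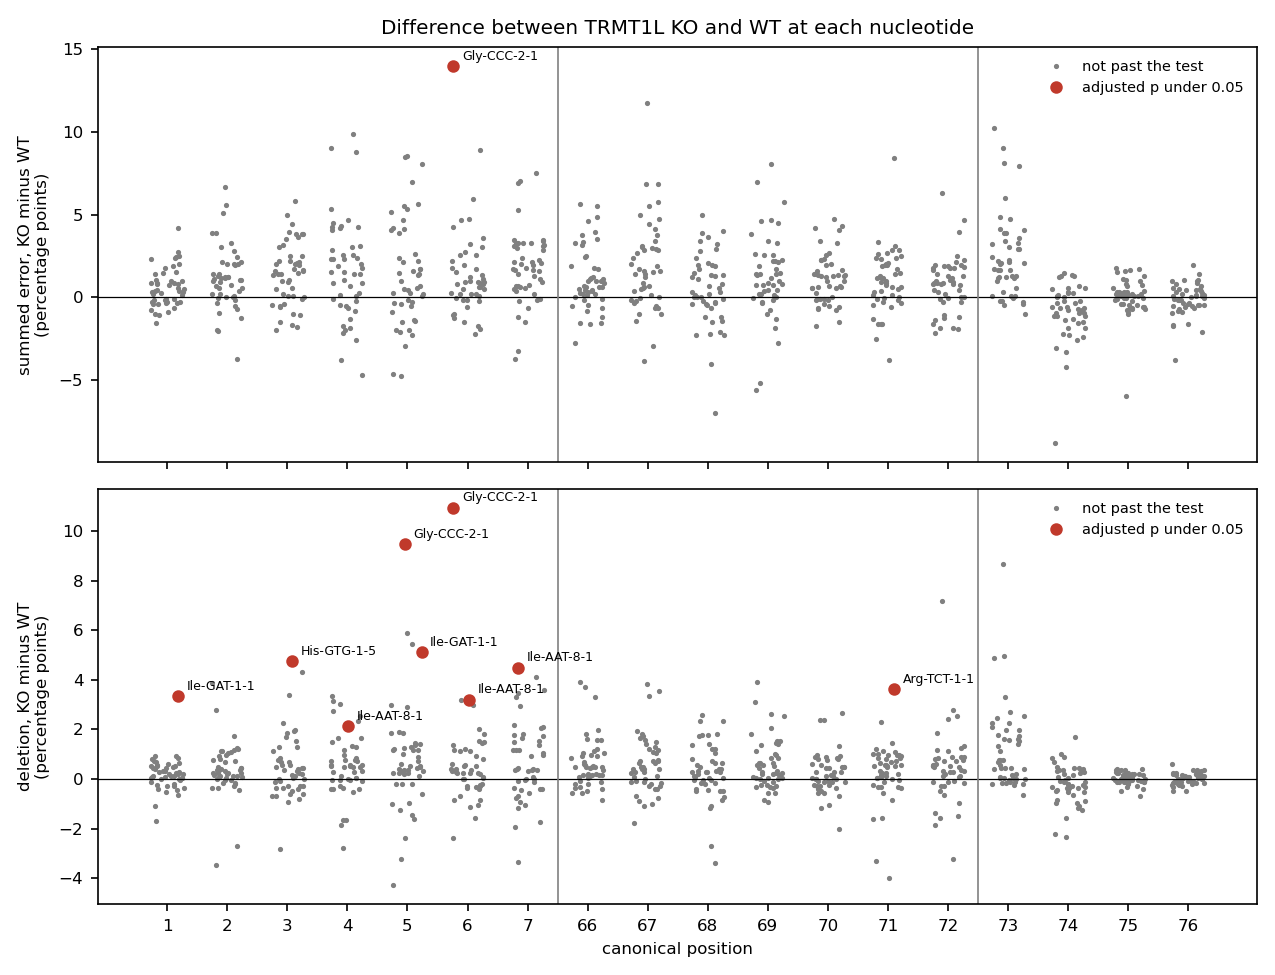
KO minus WT (percentage points) at each of 864 nucleotides by canonical position, for the summed error (top) and deletion (bottom), with positions past the limma test (adjusted p under 0.05) in red and named. The called members are all above 0 and lie on the 5' strand, apart from position 71 of Arg-TCT-1-1.

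The largest differences that did not pass the test followed no single position. On the 5' strand they were position 4 of valine tRNAs. Val-AAC-1-4 had a summed error of 36.7% and 39.4% in KO libraries, against 24.96% and 31.4% in WT libraries (limma adjusted p = 0.202). Val-CAC-1-1 had 33.99% and 34.9% in KO, against 24.3% and 26.6% in WT (adjusted p = 0.115). The third, Val-TAC-1-1, had 30.6% and 29.9% in KO, against 19.7% and 23.2% in WT (adjusted p = 0.115), and was looked at after the others had been seen. Both KO libraries exceeded both WT libraries in all 3, as at 30.9% of all positions. Without insertions the difference was 5.98 points in Val-AAC-1-4 (9.88 points with them) and 4.68 points in Val-CAC-1-1 (9.01 points with them). On the 3' strand the highest was position 67 of Glu-TTC-1-1, with 60.7% and 52.4% in KO, against 46.2% and 43.2% in WT (adjusted p = 0.185), followed by positions 71 and 69 of Arg-TCT-1-1. Position 73 of Ile-AAT-8-1 had 25.1% and 14.8% in KO, against 11.9% and 11.8% in WT, so that 1 KO library carried most of the difference.

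At the lower side, 0 members passed for the summed error, where 0.387% of all positions were called lower in KO. On the 5' strand the lowest differences were at position 5 of Arg-TCT-1-1 (-4.76 points) and of Val-AAC-1-4 (-4.62 points) and position 4 of Thr-AGT-3-1 (-4.68 points). Without KO replicate 1 the arginine difference was -2.09 points, and without WT replicate 1 the valine difference was -2.72 points. Position 4 of Thr-AGT-3-1 had 38.4% and 50.6% in KO libraries, against 48.1% and 50.3% in WT libraries, and its sign turned without KO replicate 1 (1.42 points). On the 3' strand they were position 68 of Thr-TGT-1-1 (-6.97 points), position 69 of Thr-AGT-3-1 (-5.62 points, and 0.866 points without KO replicate 1) and position 69 of Gln-TTG-1-1 (-5.16 points). Position 68 of Thr-TGT-1-1 overlapped, with 11.7% and 20.6% in KO, against 25.8% and 20.5% in WT, and was -2.51 points without KO replicate 1. The glutamine position did not overlap, with 5.81% and 8.60% in KO, against 12.7% and 12.1% in WT (limma adjusted p = 0.176).

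At the end Thr-TGT-1-1 differed both ways. Its position 73 had 64.3% and 58.5% in KO libraries, against 51.7% and 53.01% in WT libraries (limma adjusted p = 0.237). Its position 74 had 19.4% and 25.3% in KO, against 33.7% and 28.6% in WT (adjusted p = 0.257), and its position 75 had 9.11% and 14.2% in KO, against 21.1% and 14.1% in WT. Genotypes overlapped at position 75 and not at 73 or 74. Position 74 of Cys-GCA-3-1 was lower by 4.24 points and overlapped. Over all references position 73 was higher in KO at 41 of 48, by a mean of 2.46 points, and position 74 at 16 of 48, with a mean difference of -0.857 points. Of all 3621 positions, 70.04% were higher in KO. The references were read in the same libraries and are not replicates, and neither position was tested as a whole.

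Averaged over a whole segment, both strands were slightly higher in KO. The difference was 1.37 points on the 5' strand, 1.10 points on the 3' strand and 1.64 points at positions 6 and 7. In each, both KO libraries exceeded both WT libraries (exact two-sided permutation p = 0.333, the smallest that 2 against 2 libraries allow). At the end the difference was 0.389 points and the genotypes overlapped (exact permutation p = 1). The other numbered positions were higher by 0.774 points (exact permutation p = 0.333). The gap between the members and those positions changed by 0.273 points between genotypes (exact permutation p = 1), less than the WT spread of 0.894 points. Centred on each library's median, the differences were 0.105 points on the 5' strand, 0.373 points at positions 6 and 7, -0.167 points on the 3' strand and -0.877 points at the end. Without WT replicate 2 the uncentred difference on the 5' strand was 0.773 points.

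Counted by nucleotide, both KO libraries lay above both WT libraries at 277 of 864 members (32.1%), close to the 30.9% of all positions. The count was 131 of 336 on the 5' strand (38.99%), 114 of 336 on the 3' strand (33.9%) and 32 of 192 at the end (16.7%). Both KO libraries lay below both WT libraries at 47 members (5.44%), where 7.93% of all positions did. The summed error was higher in KO at 602 members (69.7%), beside 70.04% of all positions, with a median difference of 0.765 points.

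At positions 75 and 76 the error moved with that of the adaptor from library to library. The mean over 599 adaptor nucleotides was 22.7% and 24.9% in KO libraries, against 26.5% and 23.02% in WT libraries. At position 76 it was 7.25% and 9.35% in KO, against 9.98% and 6.86% in WT, and at position 75 6.65% and 7.76% in KO, against 8.19% and 6.06% in WT. The libraries had the same order in all 3, except that KO replicate 1 was lowest in the adaptor and WT replicate 2 at 75 and 76. Position 73 did not follow that order, with 23.96% and 22.5% in KO, against 21.01% and 20.5% in WT. KO replicate 1 exceeded KO replicate 2 at 21.9% of the end nucleotides, and WT replicate 1 exceeded WT replicate 2 at 84.4%. The part of this in the differences between genotypes was not tested.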

How the data were processed

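Each deposited value was a base-calling error rate, a fraction of reads between 0 and 1 per the file headers, in 12 sheets with mismatch, deletion and insertion of each of 4 libraries, 48 references and 90 nucleotide columns. A further deposited sheet gave canonical positions. BWA, SAMtools and bedtools were used, per the submitters' processing notes. The sources used here do not give versions, base caller, read filters, genome build or depth.

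The 3 rates were added, multiplied to percent, and tested with limma 3.58.1 (R 4.3.3; lmFit, eBayes with trend and robust settings) on the arcsine square root, over all 3621 numbered positions, with Benjamini-Hochberg adjustment at 0.05. The method was also run on simulated rates. Noise there was independent and spreads were shuffled over positions, unlike in these data. No support for the calls is drawn from that run. Segment means were compared by exact permutation over libraries, in Python 3.11.15 (pandas 2.3.3, numpy 2.4.6, scipy 1.17.1). Levels of segments within a library were compared by exact sign flips, chosen with the values known. The named positions are all members past the test, the 3 largest and 3 smallest differences per segment, the highest and lowest reference at each position, references apart by 3 scaled median absolute deviations, the 5 highest and lowest at positions 6 and 7, and lists of known modification sites. Any other named member was chosen after its values were seen. Members, rules and lists were chosen with earlier results of these data known.

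Replicate numbers were not taken as pairs: deviations of same-numbered libraries correlated at -0.251 over 3621 positions. With 2 libraries per genotype, WT replicate 1 with KO replicate 2 then gives 0.251 of necessity. These values cannot show which libraries were prepared together. Alternatives changed the transformation, centring, a filter on low rates (10% for the sum, 1% for a kind), insertions, the test settings, positions 73 to 76, the block and each library. No tRNA sequences were used, and none is printed.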

Additional observations from a re-analysis of the deposited data

How the results depend on the processing

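With 2 libraries per genotype and no stated depth, small differences cannot be resolved. Of the segment differences, 55 alternative values kept their direction and 7 turned it. Centring on library medians turned the 3' strand to -0.167 points, the end to -0.877, all members to -0.219 and the other numbered positions to -0.492. Taking medians over nucleotides turned the gap between members and other positions to -0.165. Leaving out 1 library gave -0.516 to 1.29 points for the end and -0.359 to 0.905 for that gap, the lowest of both without WT replicate 2. WT levels as medians over nucleotides were 18.4% on the 5' strand, 17.1% on the 3' strand, 10.8% at the end, 25.1% at positions 6 and 7, 15.6% over all members and 29.7% elsewhere. Without insertions they were 19.8% on the 5' strand, 18.5% on the 3' strand, 28.8% at 6 and 7, 17.6% over all members and 31.8% elsewhere. Without Asn-GTT-2-1 and Asp-GTC-2-6 the 3' strand was 20.6%.

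Called members of the summed error, 1 in the report, numbered 0 with centred libraries and 1 to 25 when 1 library was left out. Called members of mismatch, 0 in the report, numbered 1 without positions 73 to 76 and 0 to 27 when 1 library was left out. Called members of deletion, 9 in the report, numbered 5 with centred libraries, 3 without the trend and robust settings, and 2 to 21 when 1 library was left out. Called members of insertion numbered 0 to 1 when 1 library was left out. The highest count of each of the first 3 came without KO replicate 2, and the lowest of deletion without WT replicate 1. With 1 library left out, the lone library is assumed to vary like the other genotype's. With the replicate number as a block, calls numbered 1 for the sum, 3 for mismatch, 15 for deletion and 0 for insertion. With the crossed replicate block, chosen after seeing the data, they numbered 20, 8, 1 and 2. Of the 9 deletion calls, 1 remained there, and 9 under the replicate block. The sign of named positions turned for position 4 (-10.8 to 1.42 points) and position 69 (-12.1 to 0.866 points) of Thr-AGT-3-1, the highest without KO replicate 1, and for the summed error at position 3 of His-GTG-1-5 (-0.637 to 9.55 points, the lowest without WT replicate 1). The cause was not tested.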
